A study of Mus musculus with 36 samples.

Results

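Btg4, Cnot6l, Cnot7, Cnot8, Parn, Pan2, Pan3, Zfp36l2, Angel2 and Papd7 are genes of deadenylation and maternal mRNA decay. They were chosen by role, as deadenylases, their adaptors and a tailing enzyme of maternal mRNA clearance, and their levels across the 6 groups were already known when they were listed. They are 10 of the 23845 gene symbols in the deposited table, and all 10 passed the filter on low counts in every comparison. Because of that choice the tests place each gene among all genes tested and are no independent evidence for the list.

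The series profiled mouse embryos of the 2-cell stage (2C) and the 8-cell stage (8C) in 36 RNA-seq libraries. Each library came from a pool of 4 to 5 injected embryos and was made with SMART-seq v4, which amplifies full-length cDNA from very little RNA. Its title concerns LINE-1, a retrotransposon family that becomes active in the fertilised egg, and how accessible the chromatin is. The groups were VP64 8C (7 libraries), Ctrl 8C (6), NI 8C (6), KRAB 2C (6), Ctrl 2C (7) and NI 2C (4). VP64 is the name of an activator domain and KRAB of a repressor domain, each used as a fusion to a DNA-binding protein. The labels name no target sequence, do not say what the Ctrl embryos received and do not spell out NI. The labels record injection for every library, the NI ones included, and name no agent. The labels give no mouse strain, genotype, sex or time after fertilisation. Replicate numbers below were given in the order of the samples within each group, only name libraries and pair none.

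The egg stores long-lived mRNAs that carry the embryo until its own genome is transcribed. Their clearance starts with removal of the poly(A) tail, mainly by the CCR4-NOT complex, whose catalytic subunits are Cnot6 or Cnot6l together with Cnot7 or Cnot8. In mouse, Btg4 links this complex to maternal mRNAs, and oocytes or embryos lacking Btg4 or Cnot6l retain transcripts that are normally cleared. Pan2 with its partner Pan3, and Parn, are further poly(A) nucleases, and tailing enzymes such as Papd7 add nucleotides to the end that deadenylases remove.

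Total counts per library ranged from 1103574 to 13583527 at 8C and from 1043740 to 10035066 at 2C, with the lowest total in Ctrl 2C replicate 6. The stage labels were checked against marker genes. The summed level of 10 oocyte and maternal markers lay between 56.9 and 191.5 CPM (counts relative to a scaled library total, on a common scale) at 8C, against 1047 to 6613 CPM at 2C. That of 8 markers of the 2-cell embryo lay between 9.03 and 89.1 CPM at 8C, against 246 to 2178 CPM at 2C. That of 8 markers of the 8-cell embryo and morula lay between 361 and 1345 CPM at 8C, against 49.2 to 311.5 CPM at 2C. The sum of 15 markers of the somatic cells around the egg, cumulus and granulosa, lay between 15.6 and 404 CPM at 8C. At 2C it lay between 17.9 and 397 CPM. It was highest in VP64 8C replicate 6 (404 CPM) and in KRAB 2C replicates 6 and 2 (397 and 347 CPM). Libraries had counts for 4 to 11 of the 15 in KRAB 2C, 4 to 10 in Ctrl 2C and 5 to 9 in NI 2C. At 8C they had counts for 3 to 6 in VP64, 1 to 4 in Ctrl and 2 to 5 in NI. Amh and Lum were at 0 in every 2C library, and Has2, Ptx3, Lum, Dcn and Fshr in every 8C library. How far such cells contributed was not tested. The sum of 8 sperm markers reached 1.99 CPM at 8C and 20.9 CPM at 2C. In pools of whole embryos, fewer cells that carry a transcript and less of it per cell cannot be told apart. No label says that the pools of a group are separate litters or days, so the p-values measure the spread between pools, which may be technical.

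The regions before the annotated starts of Btg4, Parn and Pan2 are shown because these transcripts were highest in the same 4 of 7 Ctrl 2C libraries. This is described further on. In KRAB 2C, Btg4 and Pan2 were again highest in the same libraries, replicates 2, 4 and 6, whereas Parn did not follow. Each line gives the 250 bases before a RefSeq start in GRCm38.p6, read 5′ to 3′ on the gene's strand, and capitals mark the CG dinucleotides. The Btg4 region is chr9:51115751-51116000 on the plus strand, the Parn region is chr16:13668171-13668420 on the minus strand and the Pan2 region is chr10:128303085-128303334 on the plus strand.
Btg4: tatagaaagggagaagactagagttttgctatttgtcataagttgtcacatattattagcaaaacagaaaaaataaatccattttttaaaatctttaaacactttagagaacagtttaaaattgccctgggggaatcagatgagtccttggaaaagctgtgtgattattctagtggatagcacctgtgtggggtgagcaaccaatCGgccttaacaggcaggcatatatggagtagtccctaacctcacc
Parn: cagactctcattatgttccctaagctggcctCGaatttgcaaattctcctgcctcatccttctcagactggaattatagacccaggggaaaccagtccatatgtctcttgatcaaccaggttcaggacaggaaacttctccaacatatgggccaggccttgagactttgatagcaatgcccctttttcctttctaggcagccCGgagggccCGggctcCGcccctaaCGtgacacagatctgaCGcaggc
Pan2: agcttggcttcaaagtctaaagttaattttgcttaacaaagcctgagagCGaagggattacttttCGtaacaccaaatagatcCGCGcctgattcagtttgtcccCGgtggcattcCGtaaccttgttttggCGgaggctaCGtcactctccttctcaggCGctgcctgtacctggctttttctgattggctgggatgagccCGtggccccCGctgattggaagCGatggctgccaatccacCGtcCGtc
The Btg4 region held 1 CG, the Parn region 6 and the Pan2 region 14. Among 32851 mouse promoter windows of this length the median was 6 CG and 92.1% held at least 1. Fewer CG than in the Btg4 region were found in 7.87% of the windows, fewer than in the Parn region in 49.6%, and fewer than in the Pan2 region in 70.6%. Of the 10 genes 8 matched the RefSeq table, with 16 windows in all, and the CG counts ran from the 1 of Btg4 to 42 for Papd7, which the table lists as Tent4a. Cnot6l, whose transcript was highest in the same 4 Ctrl 2C libraries, had 3 overlapping windows with 27 to 37 CG that are not printed. Cnot7 and Zfp36l2 had no entry. The Btg4 start lies within the gene as GENCODE draws it, which spans 51060901 to 51119875 on chromosome 9, so the region may fall in an intron of longer transcripts.

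The comparison of 8C with 2C embryos, made within Ctrl and within NI (KRAB and VP64 each had 1 stage), asks how these transcripts change while maternal mRNA is replaced. Mean levels of Btg4, Cnot6l, Angel2 and Papd7 were between 32.3-fold (Angel2 in NI) and 637-fold (Btg4 in Ctrl) lower at 8C, those of Cnot7 and Pan2 between 2.98-fold and 14.96-fold lower, and those of Cnot8 and Zfp36l2 did not pass the test in either group. In Ctrl 7 of 10 genes were lower at 8C and 0 were higher (edgeR, adjusted p under 0.05), where 61.5% of the 13158 genes tested passed in either direction and 39% were lower. In NI 7 of 10 were lower and 0 higher, where 49.9% of all genes passed and 31.4% were lower. The median log2 fold change of the 10 was -3.67 in Ctrl and -2.67 in NI, beside -0.51 and -0.47 for all genes. The 6 genes Btg4, Cnot6l, Cnot7, Pan2, Angel2 and Papd7 were lower in both, Parn passed in Ctrl and Pan3 in NI. The groups did not overlap for 5 genes in Ctrl, where 17.3% of all genes were lower in every 8C library than in any 2C library. In NI the groups did not overlap for 5 genes, where that share was 20.7%.

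**Figure D1:**
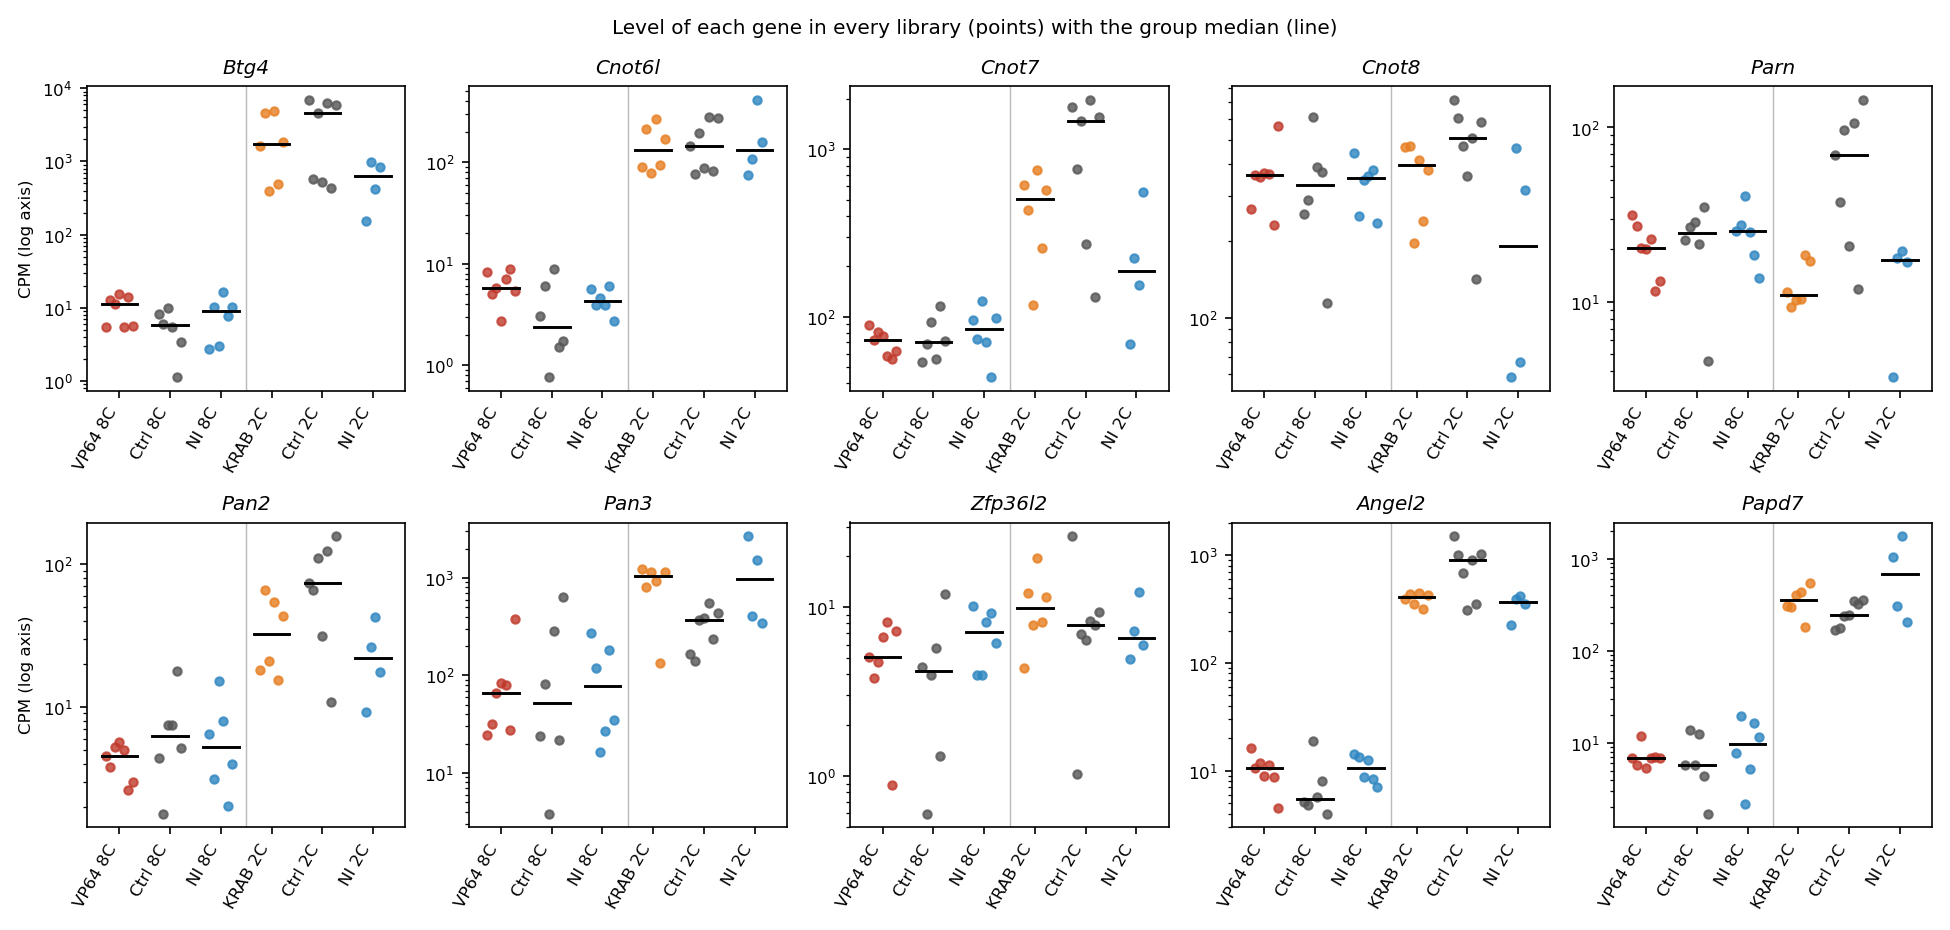
CPM of the 10 genes on a log axis, 1 panel per gene. Points are libraries, lines are group medians, and the 8C groups stand left of the 2C groups. Btg4, Cnot6l, Angel2 and Papd7 have a clear gap between the stages, whereas Cnot8 and Zfp36l2 overlap throughout.

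Btg4 is the adaptor of the Btg and Tob family that oocytes express. At 8C it ranged from 5.42 to 15.3 CPM in VP64 (median 11.4), from 1.13 to 9.95 CPM in Ctrl (median 5.75) and from 2.77 to 16.4 CPM in NI (median 8.94). At 2C it ranged from 393 to 4877 CPM in KRAB (median 1751) and from 439.6 to 6942 CPM in Ctrl (median 4598). The 4 NI 2C libraries had 153, 980.4, 416 and 837 CPM. Every 8C library lay below every 2C library. The log2 fold change was -9.30 ± 0.93 in Ctrl (SE, edgeR adjusted p = 2.98e-10) and -6.15 ± 0.84 in NI (adjusted p = 2.50e-07), and the Ctrl value was the furthest from 0 among the 10 genes in either group. Means fell to 5.69 CPM in Ctrl 8C, against 3624 CPM in Ctrl 2C, and to 8.41 CPM in NI 8C, against 597 CPM in NI 2C.

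Cnot6l (chromosome 5, 96070333 to 96164171 in GRCm38) encodes the catalytic subunit of CCR4-NOT from the family of exonuclease, endonuclease and phosphatase folds. Its 8C levels ran from 2.70 to 8.81 CPM in VP64 (median 5.70), from 0.766 to 8.88 CPM in Ctrl (median 2.38) and from 2.75 to 6.04 CPM in NI (median 4.25). Its 2C levels ran from 77.5 to 268 CPM in KRAB (median 132) and from 76.8 to 280.3 CPM in Ctrl (median 143). The NI 2C libraries had 75.1, 108, 411 and 158 CPM. All 8C libraries were below all 2C libraries, and the fall was of like size in Ctrl (-5.49 ± 0.58, adjusted p = 6.29e-10) and NI (-5.38 ± 0.59, adjusted p = 5.24e-09, both edgeR). Without NI 2C replicate 3, the library at 411 CPM, the NI value was -4.66.

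Cnot7 and Cnot8 encode the paralogous second nuclease of the complex, of the family named after the residues DEDD. Cnot7 passed the stage test in both groups and Cnot8 in neither. Cnot7 (chromosome 8, 40492540 to 40515847) ranged from 55.5 to 88.6 CPM in VP64 8C (median 72.3), from 53.8 to 115 CPM in Ctrl 8C (median 70.1) and from 43.5 to 124 CPM in NI 8C (median 84.5). It ranged from 118 to 748 CPM in KRAB 2C (median 502) and from 131 to 1979 CPM in Ctrl 2C (median 1480). The NI 2C libraries had 68.3, 223, 154 and 559 CPM, so that the stages overlapped in NI alone. Cnot7 fell in Ctrl (-3.90 ± 0.55, edgeR adjusted p = 1.92e-07) and in NI (-1.58 ± 0.55, adjusted p = 0.0160). The NI call rests on replicate 4 at 559 CPM, since without it the value was -0.94 (adjusted p = 0.174).

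Cnot8 (chromosome 11, 58104153 to 58118594) kept a similar range at both stages. It lay between 232 and 568 CPM in VP64 8C (median 364), between 114 and 616 CPM in Ctrl 8C (median 333) and between 236 and 444 CPM in NI 8C (median 353). It lay between 197 and 474 CPM in KRAB 2C (median 399) and between 142 and 717 CPM in Ctrl 2C (median 508), and the NI 2C libraries had 58.5, 465, 66.9 and 317 CPM. The stage difference was -0.51 (95% interval -1.35 to 0.33) in Ctrl and 0.57 (-0.42 to 1.55) in NI, with edgeR adjusted p = 0.307 and 0.355. Of the 31-base words of Cnot8 exons 11.7% also occur in Gm18860, a model that is not in the table. Any reads from that model may have been counted for Cnot8, which was not tested.

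Per kb of exon, Cnot7 made up a smaller share of Cnot7 plus Cnot8 at 8C than at 2C in nearly every library. The share ran from 4.71% to 13.04% in VP64 8C (median 8.51%), from 6.05% to 22.1% in Ctrl 8C (median 9.18%) and from 4.92% to 15.8% in NI 8C (median 10.3%). It ran from 21.3% to 44.8% in KRAB 2C (median 35.1%) and from 25.4% to 63.8% in Ctrl 2C (median 53.3%), and was 34.6%, 17.8%, 51.0% and 44.4% in NI 2C. Cnot7 exceeded Cnot8 per kb in 0 of 6 KRAB 2C, 4 of 7 Ctrl 2C and 1 of 4 NI 2C libraries and in none of the 8C libraries. The longest transcript in place of all exons gave medians of 9.98%, 10.8%, 12.0%, 39.1%, 57.6% and 43.7% in VP64 8C, Ctrl 8C, NI 8C, KRAB 2C, Ctrl 2C and NI 2C. The ratio was worked out after the levels had been seen and was not tested.

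**Figure D2:**
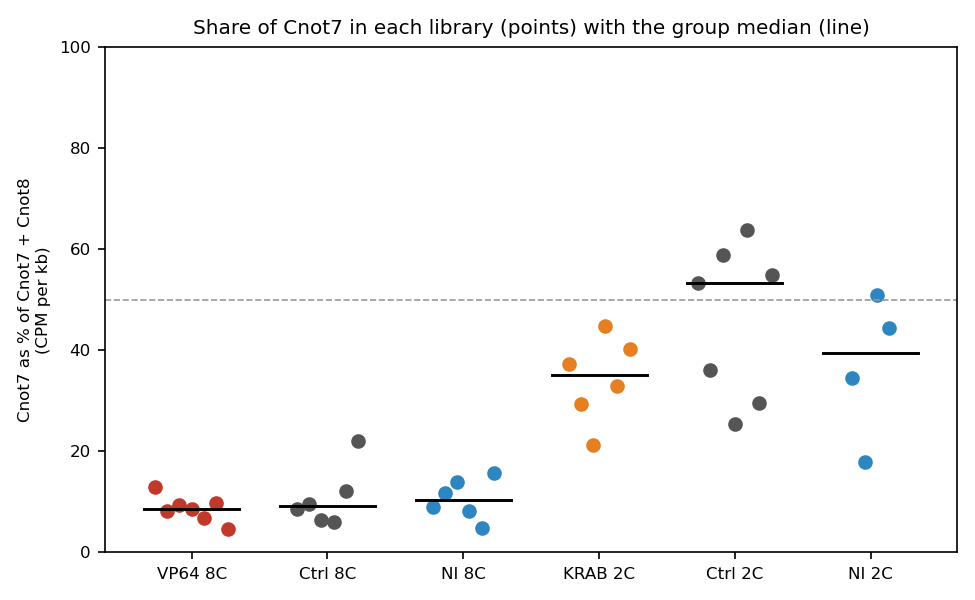
Cnot7 as a percentage of Cnot7 plus Cnot8, both in CPM per kb of exon. Points are libraries, solid lines are group medians and the dashed line marks 50%. The 8C libraries reach at most 22.1%, and 4 Ctrl 2C libraries and 1 NI 2C library lie above 50%.

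Pan2, the nuclease of the Pan2 and Pan3 complex (chromosome 10, 128303335 to 128321358), was low at both stages. It ranged from 2.64 to 5.70 CPM in VP64 8C (median 4.56), from 1.79 to 17.9 CPM in Ctrl 8C (median 6.29) and from 2.01 to 15.3 CPM in NI 8C (median 5.21). It ranged from 15.4 to 65.5 CPM in KRAB 2C (median 32.2) and from 10.8 to 156 CPM in Ctrl 2C (median 73.9), and NI 2C libraries had 9.23, 26.4, 42.4 and 17.7 CPM. VP64 8C lay wholly below the 2C groups, while Ctrl and NI overlapped between the stages. Pan2 fell in Ctrl (-3.44 ± 0.56, edgeR adjusted p = 2.58e-06) and in NI (-1.84 ± 0.58, adjusted p = 0.00869), and without NI 2C replicate 3 the NI value was -1.43 (adjusted p = 0.0578).

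Pan3, which binds poly(A)-binding protein and brings Pan2 to the tail (chromosome 5, 147430161 to 147548502), had the widest spread of the 10 within a group. It ranged from 24.4 to 376 CPM in VP64 8C (median 66.1), from 3.83 to 636 CPM in Ctrl 8C (median 52.5) and from 16.5 to 270.4 CPM in NI 8C (median 77.8). It ranged from 133 to 1240 CPM in KRAB 2C (median 1042) and from 142 to 552 CPM in Ctrl 2C (median 374), and NI 2C libraries had 2673, 406, 1531 and 347 CPM. The highest and lowest Ctrl 8C libraries thus differed 166-fold. Ctrl 8C replicate 6, at 636 CPM, lay above every Ctrl 2C library, and replicate 4, at 286 CPM, above the lowest of them. Of all libraries, Ctrl 8C replicate 6 had the lowest scaling factor for its total (0.503), which raises its CPM, and the fewest genes with counts (9672). The part of this in its Pan3 level was not tested. Pan3 fell in NI (-3.51 ± 0.91, edgeR adjusted p = 0.00167), with values of -2.80 without NI 2C replicate 1 and -4.16 without NI 8C replicate 1. In Ctrl it differed by -0.91 (95% interval -2.43 to 0.61, adjusted p = 0.313), and by -1.98 (adjusted p = 0.0334) without Ctrl 8C replicate 6, the library at 636 CPM.

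Parn, a poly(A)-specific ribonuclease that also trims the ends of small non-coding RNAs (chromosome 16, 13537960 to 13668170), had stage differences of opposite sign in Ctrl and NI. It ranged from 11.5 to 31.5 CPM in VP64 8C (median 20.4), from 4.57 to 34.9 CPM in Ctrl 8C (median 24.8) and from 13.7 to 40.3 CPM in NI 8C (median 25.3). It ranged from 9.30 to 18.4 CPM in KRAB 2C (median 10.9) and from 11.8 to 144 CPM in Ctrl 2C (median 69.9), and NI 2C libraries had 3.69, 17.8, 19.4 and 16.996 CPM. Parn fell in Ctrl (-1.58 ± 0.47, edgeR adjusted p = 0.00370). In NI its difference was 0.79 (95% interval -0.28 to 1.86, adjusted p = 0.226). The 8C medians lay within 5 CPM of each other, whereas the Ctrl 2C median stood above those of KRAB and NI.

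Angel2, a member of the same nuclease fold family as Cnot6l that is also known as an RNA 2′,3′-cyclic phosphatase (chromosome 1, 190925112 to 190946962), had the smallest p-value of all 13158 genes in the Ctrl stage comparison (edgeR adjusted p = 2.71e-12) and ranked 6 in NI (adjusted p = 9.92e-10). It ranged from 4.49 to 16.4 CPM in VP64 8C (median 10.6), from 4.00 to 18.8 CPM in Ctrl 8C (median 5.42) and from 7.02 to 14.4 CPM in NI 8C (median 10.6). It ranged from 317 to 450.1 CPM in KRAB 2C (median 413) and from 311 to 1500.2 CPM in Ctrl 2C (median 899), and NI 2C libraries had 225, 389, 421 and 353 CPM. Every 8C library was more than 10-fold below every 2C library. The log2 fold change was -6.70 ± 0.51 in Ctrl and -5.01 ± 0.49 in NI.

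Papd7, also named Tent4a, is a non-canonical poly(A) polymerase whose mixed tails slow deadenylation (chromosome 13, 69497959 to 69534617). It ranged from 5.40 to 11.9 CPM in VP64 8C (median 6.89), from 1.71 to 13.8 CPM in Ctrl 8C (median 5.78) and from 2.18 to 19.7 CPM in NI 8C (median 9.64). It ranged from 182 to 543 CPM in KRAB 2C (median 355) and from 170 to 351 CPM in Ctrl 2C (median 243), and NI 2C libraries had 1041, 302, 1739 and 206 CPM. The stages did not overlap. Papd7 fell, with a log2 fold change of -5.17 ± 0.56 in Ctrl and -6.33 ± 0.61 in NI (edgeR adjusted p = 1.18e-09 and 9.92e-10, rank 5 of 13158 in NI), and the NI value was -5.66 without NI 2C replicate 3.

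Zfp36l2, a zinc finger protein that binds AU-rich elements and brings CCR4-NOT to the mRNA (chromosome 17, 84183931 to 84187947), was low in every group. It ranged from 0.881 to 8.14 CPM in VP64 8C (median 5.05), from 0.598 to 12.0 CPM in Ctrl 8C (median 4.19) and from 3.94 to 10.1 CPM in NI 8C (median 7.14). It ranged from 4.35 to 19.5 CPM in KRAB 2C (median 9.81) and from 1.03 to 26.2 CPM in Ctrl 2C (median 7.85), and NI 2C libraries had 4.92, 7.196, 12.2 and 5.94 CPM. The counts behind these levels ran from 1 to 120, and all groups overlapped. The stage difference was -1.03 (95% interval -2.13 to 0.08) in Ctrl and -0.10 (-1.35 to 1.15) in NI, with edgeR adjusted p = 0.110 and 0.908. In Ctrl the difference was -1.37 (adjusted p = 0.0267) without Ctrl 2C replicate 2 and -1.51 (adjusted p = 0.0232) without Ctrl 8C replicate 6, and DESeq2 gave adjusted p = 0.0331.

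**Figure D3:**
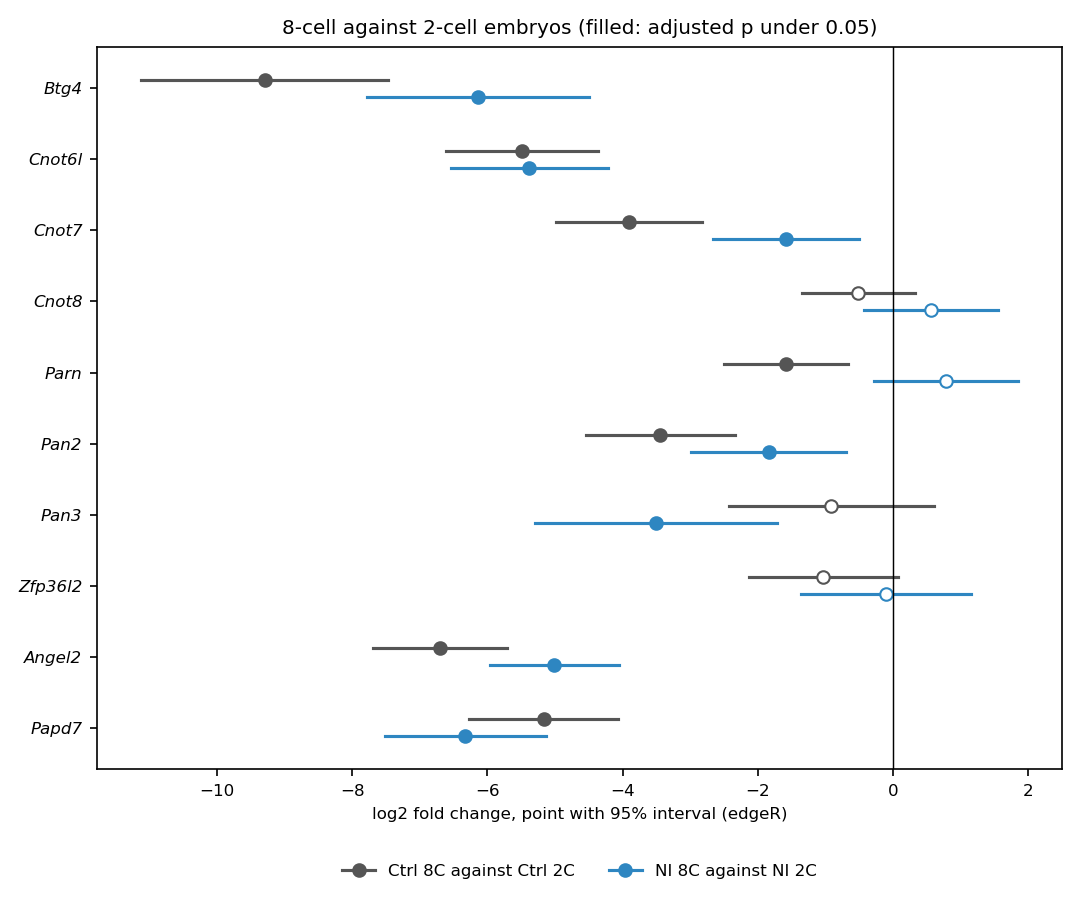
Log2 fold change of 8C against 2C embryos for each gene, in Ctrl (grey, upper) and NI (blue, lower). Points are estimates, lines are 95% intervals, and filled points have an edgeR adjusted p under 0.05. The values run from -9.30 for Btg4 in Ctrl to 0.79 for Parn in NI, and 14 of 20 points are filled.

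The difference between the Ctrl and the NI stage change was tested as an interaction, since passing in 1 group and not in the other does not show that they differ. The estimate, Ctrl minus NI, was negative for Btg4 (-3.15 ± 1.03), Parn (-2.37 ± 0.72), Cnot7 (-2.32 ± 0.76), Angel2 (-1.69 ± 0.60), Pan2 (-1.60 ± 0.79), Cnot8 (-1.07 ± 0.66) and Zfp36l2 (-0.93 ± 0.85), and positive for Pan3 (2.60 ± 1.16) and Papd7 (1.16 ± 0.71). For Cnot6l it was -0.11 (95% interval -1.51 to 1.28). Without Ctrl 8C replicate 6 the Pan3 value was 1.53, and without NI 2C replicate 3 that of Papd7 was 0.49. None of the 10 passed (edgeR, lowest adjusted p = 0.0943 for Parn), nor did any of the 13158 genes (0% called), while 5 of the 10 and 2680 of all genes had an unadjusted p under 0.05. DESeq2 called 3 of the 10, Btg4, Cnot7 and Parn, among 690 genes. Without Ctrl 2C replicate 6 edgeR called 4, which were those 3 and Angel2, among 1098 genes, and without Ctrl 2C replicate 4 it called Parn alone, among 265.

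Among 2C embryos, KRAB was compared with Ctrl, Ctrl with NI, and KRAB with NI, to ask how the transcripts differ in embryos given the repressor and in those labelled Ctrl. No gene of the 10 passed in any of the 3 comparisons by edgeR, and neither did any of the 11799 genes tested (0% called in each). At an unadjusted p under 0.05 there were 3 of the 10 and 1838 of all genes for KRAB against Ctrl, 7 of the 10 and 2756 of all for Ctrl against NI, and 2 of the 10 and 368 of all for KRAB against NI. The Ctrl libraries serve in the first 2 comparisons and the NI libraries in the last 2, so the values are not independent. No gene of the 10 had groups that did not overlap, which held for at most 0.517% of all genes in any of these comparisons and either direction.

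The largest difference between KRAB and Ctrl was that of Parn. KRAB libraries had between 9.30 and 18.4 CPM, a mean of 12.8 ± 3.95 (SD, n = 6), against 69.5 ± 48.9 in Ctrl (n = 7), and all 6 lay below the Ctrl median of 69.9 CPM. The log2 fold change was -2.16 ± 0.50 (95% interval -3.15 to -1.17), rank 7 of 11799 genes by p-value, with an edgeR adjusted p of 0.222. DESeq2 gave -2.09 with an adjusted p of 0.00695, among 242 genes called (2.05% of all), and edgeR without Ctrl 2C replicate 6 gave -2.25 with an adjusted p of 0.0498, among 159. Pan3 was at 901 ± 409 CPM in KRAB, against 329 ± 152 in Ctrl, a difference of 1.66 ± 0.57 (edgeR adjusted p = 0.233). Angel2 was at 397 ± 52.7 CPM in KRAB, against 827 ± 418 in Ctrl (-0.88 ± 0.40, adjusted p = 0.304), and its 6 KRAB libraries were all below the Ctrl median. Cnot7 (-1.09 ± 0.60) and Pan2 (-0.97 ± 0.50) had negative differences and Papd7 a positive one (0.62 ± 0.48). For Btg4 the interval ran from -1.88 to 0.99, for Cnot6l from -0.79 to 1.01, for Cnot8 from -1.16 to 0.68 and for Zfp36l2 from -0.75 to 1.37.

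Between Ctrl and NI at 2C the 10 genes had a median log2 fold change of 1.003, beside 0.07 for all genes. Btg4 was at 3624 ± 2995 CPM in Ctrl (SD, n = 7), against 597 ± 381 in NI (n = 4), a difference of 2.38 ± 0.92. Parn (1.99 ± 0.59), Cnot7 (2.00 ± 0.72), Pan2 (1.47 ± 0.60) and Angel2 (1.03 ± 0.46) had positive differences too. Pan3, at 329 ± 152 CPM in Ctrl against 1239 ± 1100 in NI, had -2.30 ± 0.62 (-1.49 without NI 2C replicate 1), and Papd7, at 263 ± 75.7 CPM in Ctrl against 822 ± 716 in NI, had -1.98 ± 0.53. The edgeR adjusted p-values of these 7 lay between 0.121 and 0.191. DESeq2 called 5 of the 10 (Btg4, Cnot7 and Parn higher, Pan3 and Papd7 lower) among 1086 genes, and edgeR without Ctrl 2C replicate 6 called 4 (Cnot7 and Parn higher, Pan3 and Papd7 lower) among 1374 genes. The intervals for Cnot6l (-1.53 to 0.47), Cnot8 (-0.10 to 2.05) and Zfp36l2 (-1.11 to 1.32) included 0.

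Between KRAB and NI at 2C the 10 genes had a median log2 fold change of 0.28, beside -0.02 for all. Btg4 was at 2305 ± 1963 CPM in KRAB, against 597 ± 381 in NI (1.94 ± 0.91), and Papd7 at 361 ± 126 CPM in KRAB, against 822 ± 716 in NI (-1.36 ± 0.55, and -0.73 without NI 2C replicate 3). Both had an edgeR adjusted p of 0.999. Parn, at 12.8 CPM in KRAB and 14.5 CPM in NI, differed by -0.17 (95% interval -1.27 to 0.92), and Angel2, at 397 CPM in KRAB and 347 CPM in NI, by 0.15 (-0.75 to 1.06).

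**Figure D4:**
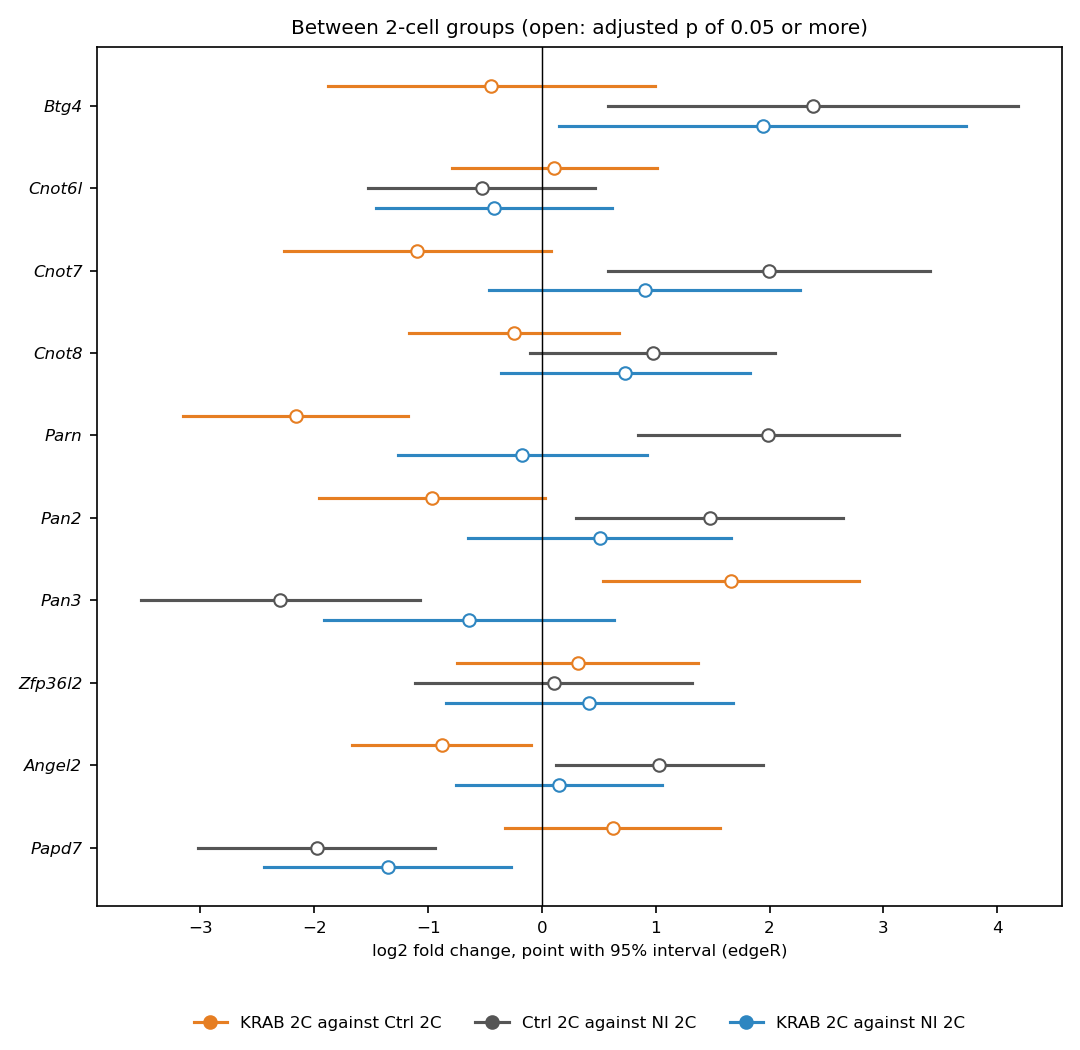
Log2 fold changes between the 2C groups with 95% intervals, for KRAB against Ctrl (orange), Ctrl against NI (grey) and KRAB against NI (blue), from top to bottom within each gene. All 30 points are open, as no edgeR adjusted p was under 0.05. For Parn the orange interval lies below 0 and the grey one above it.

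Within the 2C groups some of the 10 genes were high or low in the same libraries, which was not tested. In Ctrl 2C, Btg4 was at 6942, 4598, 6331 and 5960 CPM in replicates 1, 3, 5 and 7, against 579, 519 and 439.6 CPM in replicates 2, 4 and 6, with no library between. Those 4 libraries were also the 4 highest of their group in Cnot7 (1480 to 1979 CPM), Cnot6l (143 to 280.3 CPM), Parn (69.9 to 144 CPM) and Pan2 (73.9 to 156 CPM), but not in Angel2, Cnot8, Pan3, Papd7 or Zfp36l2. Replicates 2, 4 and 6 had 760, 270 and 131 CPM of Cnot7 and 76.8, 87.1 and 82.4 CPM of Cnot6l. They had 37.6, 20.9 and 11.8 CPM of Parn and 65.9, 31.2 and 10.8 CPM of Pan2. Replicate 2 was thus close to the 4 in Pan2 and lay between in Cnot7 and Parn. The total counts of replicates 1, 3, 5 and 7 were 4440172, 7742233, 8126251 and 10035066, against 7176488, 1543640 and 1043740 in replicates 2, 4 and 6. The summed level of the 10 oocyte and maternal markers was 4612 to 6613 CPM in those 4, against 1265, 1047 and 4100 CPM in replicates 2, 4 and 6. The summed level of the 2-cell embryo markers was 2083, 1189, 1556 and 1159 CPM in replicates 1, 3, 5 and 7. It was 893.5, 885.6 and 931.2 CPM in replicates 2, 4 and 6. That of the 8-cell embryo and morula markers was 138.1, 311.5, 255.7 and 276 CPM, against 120.7, 129.4 and 72.6 CPM. The part of depth, of maternal RNA content and of embryo stage in the split was not tested. In KRAB 2C Btg4 was spread likewise, with 4559 and 4877 CPM in replicates 2 and 4, 1629 and 1872 CPM in replicates 1 and 6, and 393 and 497 CPM in replicates 3 and 5, which were also the lowest 2 in Cnot7, Cnot8 and Angel2. Pan2 and Cnot6l were, like Btg4, highest in replicates 2, 4 and 6. Pan2 had 65.5, 53.9 and 43.3 CPM there, and Cnot6l had 214, 268 and 170 CPM. Parn did not follow, with 9.30 and 10.4 CPM in replicates 2 and 4 and its highest level, 18.4 CPM, in replicate 5. Pan3 had 1148 and 133 CPM in replicates 3 and 5, near the top and at the bottom of its group.

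In NI 2C, replicates 1 and 3 stood apart from 2 and 4. They had 2673 and 1531 CPM of Pan3, against 406 and 347 CPM, and 1041 and 1739 CPM of Papd7, against 302 and 206 CPM. They also had the lowest Cnot8, at 58.5 and 66.9 CPM, against 465 and 317 CPM. Their total counts were 1544939 and 1376619, against 3144622 and 4962006. The summed 2-cell embryo markers were at 246.1 and 1287 CPM in replicates 1 and 3, against 1187 and 744.5 CPM in replicates 2 and 4. The oocyte and maternal markers were at 1400 and 5680 CPM, against 1974 and 1197 CPM. The sperm markers were at 3.08 and 20.85 CPM, against 0.48 and 0.66 CPM. The part of depth and of RNA content was not tested. Relative to the median of the 17 2C libraries, all 10 genes were above in Ctrl 2C replicate 5, whereas 1 of 10 was above in each of Ctrl 2C replicates 4 and 6 and NI 2C replicates 2 and 4.

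**Figure D5:**
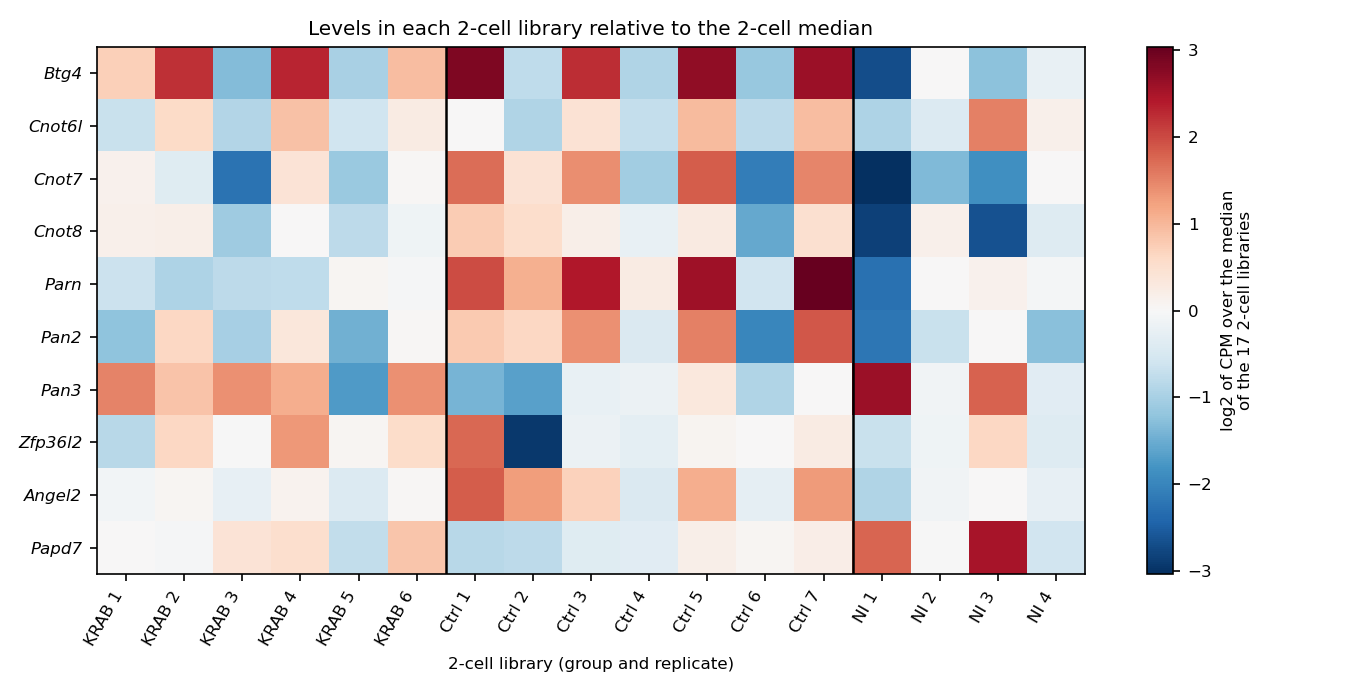
Log2 ratio of each gene's CPM to its median over the 17 2C libraries, from -3.03 (blue) to 3.02 (red), with 1 column per library and black lines between KRAB, Ctrl and NI. Btg4, Parn, Cnot7 and Pan2 are red together in Ctrl replicates 1, 3, 5 and 7, and Pan3 and Papd7 are red in NI replicates 1 and 3.

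At 8C, VP64 was compared with Ctrl, Ctrl with NI, and VP64 with NI. None of the 10 genes passed by edgeR, none of the 9850 genes tested did (0% called in each), and 0 of the 10 had an unadjusted p under 0.05 in any of the 3, beside 393, 429 and 706 of all genes. The estimates nearest to a difference between VP64 and Ctrl were those of Btg4, at 10.04 ± 4.39 CPM in VP64 against 5.69 ± 3.16 in Ctrl (0.77 ± 0.51), Cnot6l, at 6.16 ± 2.11 against 3.65 ± 3.16 CPM (0.76 ± 0.51), and Pan2, at 4.28 ± 1.16 against 7.36 ± 5.58 CPM (-0.80 ± 0.49). Without Ctrl 8C replicate 4 the Cnot6l value was 1.28, and without Ctrl 8C replicate 5 that of Pan2 was -0.32. All 7 VP64 libraries were above the Ctrl median in Cnot6l and below it in Pan2, while the groups overlapped. The most precise estimate was that of Cnot7, -0.13 between VP64 and Ctrl (95% interval -0.70 to 0.44), and the least precise that of Pan3, -0.84 (-2.56 to 0.87). Between Ctrl and NI the 10 differences ran from -0.56 for Zfp36l2 to 0.73 for Pan3, and between VP64 and NI from -0.59 for Pan2 to 0.46 for Cnot6l. DESeq2 called 0 of the 10 in each of the 3 as well. Of all 9850 genes it called 1 between VP64 and Ctrl (0.0102%), 1 between Ctrl and NI (0.0102%) and 21 between VP64 and NI (0.213%).

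Levels of different genes are compared here per kb of exon. At 2C Btg4 had the highest mean of the 10 in each group, at 902 ± 768 CPM per kb in KRAB, 1418 ± 1172 in Ctrl and 233 ± 149 in NI. Its range over libraries overlapped those of other genes in each group. Cnot8 (138 ± 44.6 in KRAB, 184 ± 71.4 in Ctrl, 86.04 ± 75.5 in NI) followed in KRAB, and Cnot7 (196 ± 129) and Papd7 (92.2 ± 80.3) in Ctrl and NI, but these places overlap within their spread. At 8C Cnot8 was the highest in every group, at 137 ± 40.5 CPM per kb in VP64, 129 ± 63.6 in Ctrl and 128 ± 30.2 in NI, and its lowest 8C library, at 43.1, was close to the highest of any other gene, Pan3 at 42.5 in Ctrl 8C replicate 6. With the longest transcript as the length the order of these 2 turned round, with Cnot8 at 54.2 and Pan3 at 114.8. Cnot7 came next by mean, at 12.1 ± 2.14 in VP64, 13.1 ± 4.09 in Ctrl and 14.4 ± 4.78 in NI, but Pan3 was above it in Ctrl with the longest transcript. Pan3, Parn and Btg4 lay between 2.23 and 11.7 on average, overlapping each other, and Angel2, Zfp36l2, Papd7, Pan2 and Cnot6l between 0.354 and 1.964. The lowest at 2C were Parn and Zfp36l2 in KRAB (2.38 and 2.996), and Zfp36l2 in Ctrl and NI (2.67 and 2.14). The first place in each group was the same with the longest transcript as the length, and 4 to 7 of the 10 genes kept their place.

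Over 8 lists of 120 genes, chosen with results of these data known, 116 were tested between the stages. In Ctrl 28 were higher and 48 lower at 8C, and in NI 20 were higher and 38 lower, with medians of -0.48 in both, close to those of all genes. The counts of each list stand beside 22.5% higher and 39% lower among all genes in Ctrl, and 18.5% higher and 31.4% lower in NI, and a list near those shares does not stand apart from the table. Of 13 other subunits of CCR4-NOT and adaptors of the Tob and Btg family, 1 was higher and 6 were lower in Ctrl and 0 were higher and 5 lower in NI. Tob2, an adaptor related to Btg4, averaged 3.18 ± 2.56 CPM in Ctrl 8C, against 60.7 ± 20.2 in Ctrl 2C (-4.24 ± 0.45), and 5.76 ± 3.03 CPM in NI 8C, against 89.4 ± 24.8 in NI 2C (-3.98 ± 0.46). Tob1 (-2.45 ± 0.79 in Ctrl, -3.89 ± 0.89 in NI) and Cnot4, the ubiquitin ligase of the complex (-2.98 ± 0.57 and -2.81 ± 0.61), fell in both. Of 5 other nucleases of these families, 1 was higher and 2 were lower in Ctrl and 1 was higher and 3 lower in NI. Angel1, the paralogue of Angel2, fell (-6.42 ± 0.80 and -4.09 ± 0.74), as did Ccrn4l, or nocturnin (-1.43 ± 0.46 and -1.67 ± 0.51), whereas Toe1, a nuclear deadenylase of small nuclear RNAs, rose (1.92 ± 0.54 and 2.61 ± 0.68).

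Of 12 other tailing enzymes and poly(A) polymerases, 2 were higher and 5 lower in Ctrl and 1 was higher and 3 were lower in NI, near the shares of all genes. Fam46b, a cytoplasmic poly(A) polymerase, averaged 1.11 ± 1.08 CPM in Ctrl 8C, against 273 ± 228 in Ctrl 2C (-7.69 ± 0.82), and 1.498 ± 1.33 CPM in NI 8C, against 33.5 ± 17.1 in NI 2C (-4.28 ± 0.74). Fam46d of the same family had 0 counts in all 19 8C libraries, against means of 1.22, 2.75 and 3.51 CPM in KRAB, Ctrl and NI 2C. Papola, the canonical nuclear poly(A) polymerase, rose (1.80 ± 0.45 in Ctrl, 1.70 ± 0.54 in NI). Of 10 poly(A)-binding proteins and partners tested, 4 were higher and 5 lower in Ctrl and 4 were higher and 4 lower in NI. Paip1, a partner of poly(A)-binding protein, fell (-4.55 ± 0.75 and -4.53 ± 0.78), as did Pabpn1l, which is needed for maternal mRNA decay in mouse (-8.09 ± 1.05 and -5.78 ± 1.07), while Larp4, which protects poly(A) tails, rose (2.95 ± 0.50 and 2.46 ± 0.60).

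Of 20 genes of decapping and decay from the 5′ end, 6 were higher and 9 lower in Ctrl and 4 were higher and 6 lower in NI, again near the shares of all genes. Dcp2, the decapping enzyme, fell (-3.99 ± 0.45 in Ctrl, -4.13 ± 0.48 in NI), as did Lsm14a (-3.33 ± 0.44 and -3.34 ± 0.47) and Lsm14b (-2.72 ± 0.71 and -4.55 ± 0.80), which bind repressed mRNAs. Of 18 genes of the exosome, the Ski complex and decay from the 3′ end, 9 were higher and 4 lower in Ctrl and 7 were higher and 3 lower in NI. The medians of that list were 1.52 in Ctrl and 0.81 in NI, on the other side of 0 from those of all genes. Exosc9, an exosome core subunit, rose (2.71 ± 0.45 and 3.63 ± 0.59), as did Wdr61, a Ski complex subunit (3.56 ± 0.54 and 3.60 ± 0.68), whereas Ttc37, the scaffold of that complex, fell (-3.06 ± 0.69 and -4.15 ± 0.77).

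Of 22 RNA-binding proteins that mark mRNAs for decay, 5 were higher and 6 lower in Ctrl and 2 were higher and 5 lower in NI, near or below the shares of all genes. Tnrc6b, which links microRNA complexes to CCR4-NOT, fell (-3.38 ± 0.42 in Ctrl, -3.71 ± 0.45 in NI), and so did Nanos1 (-2.05 ± 0.50 and -3.84 ± 0.57) and Nanos2 (-6.45 ± 0.87 and -4.74 ± 0.85), translational repressors of germ cells. Of 16 maternal mRNA stabilisers and translation regulators, 0 were higher and 11 lower in Ctrl and 1 was higher and 9 lower in NI, with medians of -3.18 and -3.15. Zar1, an oocyte protein that binds stored mRNAs, averaged 0.452 ± 0.406 CPM in Ctrl 8C, against 64.2 ± 39.4 in Ctrl 2C (-7.12 ± 0.74), and 0.638 ± 0.452 CPM in NI 8C, against 53.9 ± 20.8 in NI 2C (-6.43 ± 0.73). Elavl2 (-5.47 ± 0.59 and -4.09 ± 0.58) and Ybx2 (-4.26 ± 0.68 and -5.19 ± 0.76), both binders of oocyte mRNA, fell too. None of the 8 lists had a gene that passed within a stage (edgeR), where no gene of the table did.

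The genes with the pattern nearest to each of the 10 were found from the 6 group means of log2(CPM + 1), each gene centred on its own mean, by the root mean square difference. The 2 nearest were E330034G19Rik (0.207) and Accsl (0.270) for Btg4, Gli3 (0.160) and B3gnt4 (0.175) for Cnot6l, and Nebl (0.0681) and Prr5 (0.0974) for Cnot7. They were Mmadhc (0.0767) and Alkbh8 (0.105) for Cnot8, Kat7 (0.0976) and Mms19 (0.142) for Parn, Srd5a3 (0.109) and Scyl2 (0.115) for Pan2, and Zfp30 (0.131) and Piezo2 (0.195) for Pan3. They were Sdf2l1 (0.0942) and BC025920 (0.108) for Zfp36l2, Musk (0.124) and Gm17751 (0.135) for Angel2, and Ppm1h (0.195) and Fam199x (0.217) for Papd7. With group medians in place of means, 3 of these 20 pairs were again among the nearest, those of Btg4 with Accsl, Cnot6l with Gli3 and Papd7 with Ppm1h.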

How the data were processed

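The authors deposited 1 table of expected counts per gene and library, for which the submitters' processing notes name Bowtie2, RSEM and the build mm10. Versions, annotation and strand setting: not given in the sources used here. RSEM divides reads that match several genes. Per-sample columns left unused numbered 0.

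The members and gene lists were chosen with earlier results of these data known. After rounding to whole numbers, the expected counts were tested with edgeR 4.0.16 (limma 3.58.1, R 4.3.3): the quasi-likelihood test with TMM scaling, the robust option, filterByExpr (minimum count 10, minimum total 15) and Benjamini-Hochberg adjustment over all genes at 0.05, two-sided. Comparisons within a stage used all 17 2C or 19 8C libraries (11799 and 9850 genes), and those between stages all 36 (13158 genes). The biological coefficient of variation was 0.738, 0.609 and 0.703. CPM are counts relative to TMM-scaled totals over all libraries, and levels per kb divide by the union of GENCODE vM21 exons on GRCm38. Without a strand setting, reads of overlapping opposite genes cannot be told apart, and such overlap covers 4.24% of Cnot7 exon bases (Zdhhc2), 2.97% of Zfp36l2 (AC132455.1) and 1.85% of Papd7 (Nsun2). The code of the test was run on simulated counts with the same spread for all genes and no splits between libraries. That run cannot show how the test performs on these data. No pair of libraries within a group agreed within sampling noise (93 pairs, lowest chi-square over degrees of freedom 7.75). Named were all 10 members, up to 3 passing genes per list with the smallest adjusted p in NI, and the 2 nearest genes per member. The alternatives were DESeq2 1.42.0, its size factors, no filter, only the libraries compared, each library left out, another gene length and group medians. Promoters come from RefSeq on GRCm38.p6. Figures were drawn with matplotlib.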

Additional observations from a re-analysis of the deposited data

Results flagged for a closer look

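In 60 sets of 1 gene in 1 group, 7 had a library whose gap to its nearest neighbour, as a share of the range, exceeded Dixon's 95% critical value. Chance flags about 1 in 20 where sets are independent and values normally distributed. The sets here share the same 36 libraries and use CPM without a log, so that rate is no test of the 7. At 8C, Cnot8 stood at 568 CPM in VP64 8C replicate 7 (the next was 371 CPM), and Pan3 stood at 376 CPM in the same library (next 84.4 CPM). The scaling factor of that library's total was 0.624, lower than all others but that of Ctrl 8C replicate 6 (0.503), and its part was not tested. Papd7 stood at 11.9 CPM in VP64 8C replicate 3 (next 7.05 CPM), from 25 counts. In Ctrl 8C, Pan2 stood at 17.9 CPM in replicate 5 (next 7.50 CPM) and Angel2 at 18.8 CPM in replicate 3 (next 8.10 CPM). At 2C, Zfp36l2 stood at 26.2 CPM in Ctrl 2C replicate 1 (next 9.37 CPM). Parn was low, at 3.69 CPM in NI 2C replicate 1 (next 16.996 CPM), from 6 counts.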

How the results depend on the processing

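Of the 14 member calls, all between the stages, the direction was kept under each of the 14 to 17 alternative settings tried for a call (217 values in all), and 2 calls were lost, those of Pan2 and Cnot7 in NI without NI 2C replicates 3 and 4. Of the 76 comparisons of a member without a call, 22 changed sign under at least 1 setting. DESeq2 called 1 member between KRAB and Ctrl (2.05% of all genes), 5 between Ctrl and NI at 2C (9.2%) and 3 in the interaction (5.24%). By edgeR with single libraries left out the number ranged from 0 to 1 (0 to 1.34% of all genes), from 0 to 4 (0 to 11.6%) and from 0 to 4 (0 to 8.36%), each highest without Ctrl 2C replicate 6, the shallowest 2C library. The stage counts then ranged from 7 to 9 in Ctrl (58.1% to 63.5% of all genes) and from 6 to 7 in NI (43.1% to 49%). The cause was not tested. Size factors moved the median of all genes to -0.70 in Ctrl and -0.72 in NI, and using only the libraries compared moved it to -0.44 and 0.09. Papd7 in VP64 against Ctrl turned to 0.019 with size factors, 0.017 by DESeq2 and 0.0079 with only the libraries compared. Angel2 in VP64 against NI turned to 0.00453 by DESeq2, and Zfp36l2 in the NI stage comparison to 0.00338 without a filter and 0.061 with only the libraries compared. With single libraries left out, the ranges that crossed 0 were, in KRAB against Ctrl, -0.12 to 0.28 for Cnot6l. In Ctrl against NI at 2C they were -0.79 to 0.22 for Cnot6l and -0.45 to 0.37 for Zfp36l2. In KRAB against NI they were -0.67 to 0.34 for Cnot6l, -0.96 to 0.19 for Pan3 and -0.47 to 0.018 for Parn. In VP64 against Ctrl they were -0.22 to 0.032 for Cnot7, -0.11 to 0.35 for Cnot8, -0.36 to 0.0079 for Parn, -1.73 to 0.26 for Pan3, -0.029 to 0.68 for Zfp36l2 and -0.20 to 0.25 for Papd7. In Ctrl against NI at 8C they were -0.25 to 0.014 for Cnot7, -0.23 to 0.22 for Cnot8, -0.22 to 0.12 for Parn, -0.24 to 0.63 for Pan2 and -0.40 to 1.22 for Pan3. In VP64 against NI they were -0.19 to 0.10 for Angel2, -0.029 to 0.21 for Cnot8 and -1.04 to 0.38 for Pan3. They were -0.36 to 0.20 for Zfp36l2 in the NI stage comparison and -0.83 to 0.15 for Cnot6l in the interaction. No paired analysis was possible because the labels give no replicate numbers and those used here only follow sample order. Zfp36l2 and the 8C levels of several members rest on under 10 counts in some libraries, so that small differences were not detectable at this depth.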
